A study of Mus musculus with 4 samples.

Results

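Interferon-stimulated effector genes are the antiviral and regulatory genes that cells transcribe when an interferon binds its receptor. A list of 41 of them was read in the brain cortex of SAMP8 mice, and the members were the array's gene probe sets whose platform symbol was on the list. Of the 41 symbols 40 had a probe set, 1 each, among 22206 gene probe sets, and Ifi44 was not analysed here. The mice were males of SAMP8, an inbred strain that ages early. All had been caged singly from 7 months of age for 4 months. From 11 months of age, TCQA, a compound that the labels give by this abbreviation, was given by mouth for 1 month at 5 mg/kg per day in the TCQA group, and the control mice received MilliQ water. Each group had 2 Clariom S arrays, and the labels leave unsaid whether each array is a different mouse. The p-values therefore measure only how far these samples spread, which may be technical variation.

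Type I interferons bind a receptor made of Ifnar1 and Ifnar2, whose kinases activate Stat2. With Irf9 it enters a complex that binds the interferon-stimulated response element in the promoters of its target genes, while interferon gamma acts through the gamma-activated site. In brain, microglia, endothelial cells, astrocytes and neurons can all respond, and a raised interferon response is known from viral infection and from ageing. Every value below is a log2 signal, or a difference of log2 signals, so a difference of 1 is a 2-fold change.

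The members were mostly higher on 1 of the 2 TCQA arrays. TCQA replicate 1 gave the highest of the 4 signals for 28 of the 40 members, against 26.4% of all gene probe sets, and the lowest for 0 of 40, against 24.8%. It lay above both control arrays for 31 of 40 (35.4% of all gene probe sets). TCQA replicate 2 lay above both for 13 of 40 (also 35.4% of all), and above the control mean for 19 of 40 (50.6% of all). The median member lay 0.49 above its control mean on TCQA replicate 1 and at -0.02 on TCQA replicate 2. Over all gene probe sets both medians were 0.00.

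As a group comparison, 31 of 40 members had a higher mean with TCQA, against 51.1% of all gene probe sets, and the median member difference was 0.27, against 0.01 over all. None passed the test: 0 of 40 had an adjusted p under 0.05 by limma (Benjamini-Hochberg adjustment across 22206 gene probe sets), and 0 of 22206 overall. At an unadjusted p under 0.05, 3 members were higher (3.38% of all gene probe sets) and 0 lower (2.86% of all). These were Dtx3l, Ifit2 and Sp100. The criterion that the series' design text names, an unadjusted p under 0.05 with a fold over 2, was met by 0 of 40 members (0.203% of all higher, 0.171% lower). Without TCQA replicate 1 the comparison rests on TCQA replicate 2 alone, so its values repeat those given above. The member median was -0.02, with 19 of 40 higher (50.6% of all gene probe sets). Without TCQA replicate 2 it rests on TCQA replicate 1 alone, the median being again 0.49, with 33 of 40 higher (50.8% of all).

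**Figure D1:**
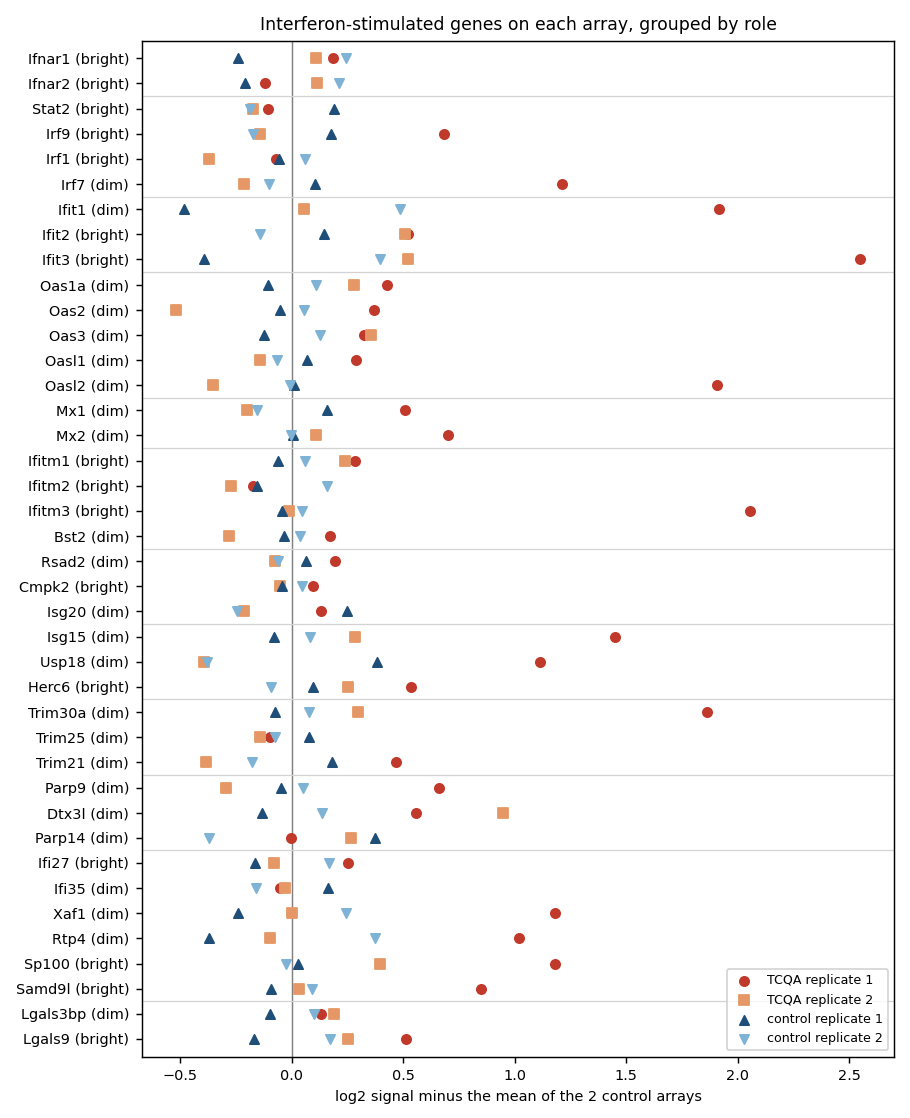
Log2 signal of each of the 40 members on each array minus the mean of its 2 control arrays, in rows grouped by role, with bright and dim marking the side of the median of all gene probe sets. The TCQA replicate 1 points lie farthest to the right for 28 of the 40 members, reaching 2.55 for Ifit3, while the TCQA replicate 2 points lie above both control arrays for 13 members and are the lowest for 14.

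The members were split at the median signal of all gene probe sets, 7.14, by their mean over the 4 arrays. Above it were 16 members, with a median difference of 0.27 and 12 higher (51% of bright gene probe sets), and below it 24, with a median of 0.26 and 19 higher (51.2% of dim ones). Irf9 at a mean of 7.15 was the nearest member above the line and Mx2 at 6.98 the nearest below. The highest signal was on TCQA replicate 1 for 11 of the 16 bright members (28.7% of bright gene probe sets) and for 17 of the 24 dim ones (24.1% of dim). Without that array the bright median was 0.07 and the dim median -0.09. The median gene lies under the median negative control probe set on each array (7.12 to 7.17 against 7.17 to 7.32), so the size of a difference is less certain for the dim members. The same holds for Irf9 and Ifit2, bright members whose control means were under the mean of the control arrays' negative control medians.

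**Figure D2:**
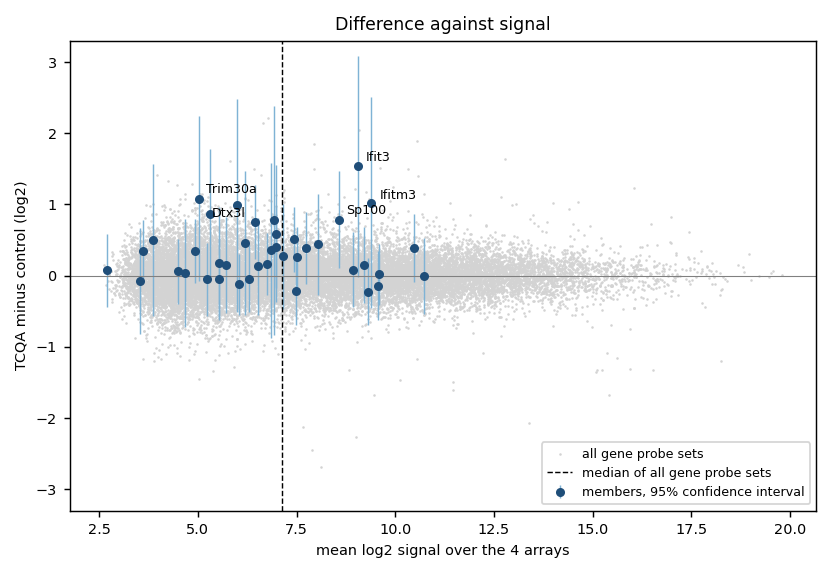
Difference between the TCQA and control means (log2) against the mean log2 signal over the 4 arrays, for all 22206 gene probe sets in grey and the 40 members in blue with the 95% confidence interval of the limma fit. The dashed line is the median signal of 7.14, and members with a higher mean lie on both sides of it, 12 of 16 on the right and 19 of 24 on the left.

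The promoters were read for the letters of both elements. The RefSeq promoter table (GRCm38.p6, windows of 300 bases from 250 before a start site to 50 after it) held 33 of the 41 listed genes. The response element core, GAAA and GAAA with any 2 bases between them, searched on both strands, was found for 13 of these 33 genes, or 39.4%, and for 3.99% of all 27025 genes of the table. The gamma-activated core TTCNNNGAA, which reads alike on both strands, was found for 9 of the 33 (27.3%), against 9.55% of all genes. Matches of both kinds overlapped in 2 of the members' 40 windows, and in 24 of 32851 windows of the table. All 13 members with the response element core were measured. Their median difference was 0.35 and TCQA replicate 1 was their highest array in 10 of 13, while the 19 measured members without it had a median of 0.26 and TCQA replicate 1 highest in 11. Among 605 measured genes outside the list whose promoter holds the core, the median difference was 0.02 and TCQA replicate 1 was highest for 29.6%, and among 15054 without it 0.01 and 26.9%. A match is only these letters in this window and says nothing of binding. The promoters printed below belong to the 5 bright members with a core, with the core in capitals. Positions count from 1 at the start site and from -1 just before it.

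The receptor chains differed more between the control arrays than between the groups. Ifnar1, the chain that the kinase Tyk2 binds, was at 9.32 and 9.25 with TCQA and at 8.90 and 9.39 in control, a difference of 0.15 (95% confidence interval -0.39 to 0.68). Ifnar2, the chain that binds interferon most tightly, was at 10.62 and 10.85 with TCQA and at 10.53 and 10.95 in control, a difference of -0.01 (interval -0.53 to 0.52). For both genes the groups overlapped, with control replicate 1 lowest and control replicate 2 highest.

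Of the transcription factors, Irf7 and Irf9 stood high on TCQA replicate 1. Irf7, which amplifies interferon production, was dim, at 4.82 and 3.40 with TCQA and at 3.71 and 3.50 in control, so that 1 TCQA array lay above both control arrays and the other below. Irf9, the DNA-binding subunit of the response complex, was at 7.70 and 6.87 with TCQA and at 7.19 and 6.84 in control. Their differences were 0.50 (SE 0.44) and 0.27 (SE 0.30), with adjusted p of 0.87 and 0.893, and -0.21 and -0.14 without TCQA replicate 1. Irf1, the activator most tied to interferon gamma, was at 7.52 and 7.22 with TCQA and at 7.53 and 7.65 in control, so that both TCQA signals were under both control signals, a pattern that 17.8% of all gene probe sets share. Stat2, the partner of Irf9, was at 9.51 and 9.45 with TCQA and at 9.81 and 9.44 in control, with overlapping groups and a difference of -0.14 (SE 0.20). Its promoter has 1 core, from -222 to -213.

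Stat2 promoter, chr10:128270248-128270547, plus strand: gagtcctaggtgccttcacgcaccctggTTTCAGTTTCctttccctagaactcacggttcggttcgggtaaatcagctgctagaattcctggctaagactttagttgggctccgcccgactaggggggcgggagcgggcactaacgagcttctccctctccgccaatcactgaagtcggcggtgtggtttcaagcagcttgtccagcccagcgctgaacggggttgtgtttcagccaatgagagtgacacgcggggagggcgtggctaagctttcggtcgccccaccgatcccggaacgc

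The IFIT genes, whose proteins bind viral RNA at its end, had the largest median difference of the roles with 3 or more members, at 0.99. Ifit3 was at 10.85 and 8.82 with TCQA and at 7.90 and 8.69 in control. Both TCQA arrays lay above both control arrays, as for 18.9% of all gene probe sets, but TCQA replicate 2 by little. The means were 9.83 ± 1.44 and 8.30 ± 0.56 (SD, n = 2 each), a 2.90-fold difference (log2 1.53, SE 0.64, unadjusted p = 0.0519, adjusted p = 0.799) that was 0.52 without TCQA replicate 1 and 2.55 without TCQA replicate 2. Control replicate 1 was its lowest array, and without it the difference was 1.14. Among all 22206 gene probe sets Ifit3 ranked 4 by the height of TCQA replicate 1 over the mean of the other 3 arrays. Its near-identical neighbour Ifit3b, picked for its likeness after its values were seen, was at 10.17 and 8.34 with TCQA and at 7.90 and 8.41 in control, and probes of the 2 genes may share signal. The Ifit3 promoter has 2 cores in the reading of the other strand (TTTC and TTTC with 2 bases between), from -156 to -147 and from -122 to -113.

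Ifit3 promoter, chr19:34583279-34583578, plus strand: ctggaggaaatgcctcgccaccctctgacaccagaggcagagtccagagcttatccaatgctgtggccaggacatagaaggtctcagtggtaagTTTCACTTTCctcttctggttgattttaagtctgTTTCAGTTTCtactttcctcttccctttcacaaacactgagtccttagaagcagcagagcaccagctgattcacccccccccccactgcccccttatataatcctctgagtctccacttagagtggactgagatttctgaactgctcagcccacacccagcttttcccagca

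Ifit1, which recognises RNA caps that lack methylation, was at 7.42 and 5.56 with TCQA and at 5.02 and 5.99 in control. TCQA replicate 1 was far above the rest, and TCQA replicate 2 lay between the control arrays. The difference of 0.99 (SE 0.62) was 0.05 without TCQA replicate 1. Ifit2, which pairs with its relatives in RNA binding, did not follow this pattern. It was at 7.71 and 7.69 with TCQA and at 7.33 and 7.04 in control, with both TCQA arrays alike and above both control arrays. Its control mean of 7.18 lay under the mean of the control arrays' negative control medians (7.32 and 7.17), so the size is less certain. The difference of 0.51 (SE 0.19) had an unadjusted p of 0.0329 and an adjusted p of 0.787, and was 0.51 without TCQA replicate 1 (unadjusted p = 0.0878), 0.52 without TCQA replicate 2 (unadjusted p = 0.0797), 0.66 without control replicate 1 (unadjusted p = 0.0341) and 0.37 without control replicate 2 (unadjusted p = 0.174). Ifit2 and Ifit3 lie side by side in the RefSeq annotation, with 0 protein-coding genes between them.

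The OAS genes, which sense double-stranded RNA and make the messenger that activates RNase L, were all dim. Oasl2, an OAS-like gene, was at 8.44 and 6.18 with TCQA and at 6.54 and 6.53 in control. Only TCQA replicate 1 stood out, 2.03 above the mean of the other 3 arrays (rank 12 of 22206), and the difference went from 0.78 (SE 0.66) to -0.35 without it. Its neighbour Oasl1, which restrains Irf7 translation, was at 2.94 and 2.51 with TCQA and at 2.72 and 2.58 in control, with overlapping groups at a very low signal. Oas1a was at 5.19 and 5.04 with TCQA and at 4.65 and 4.87 in control, and Oas3 at 3.76 and 3.79 against 3.31 and 3.57. In both the TCQA arrays were alike and above both control arrays, with differences of 0.35 (SE 0.19) and 0.34 (SE 0.18) and adjusted p of 0.817 and 0.818. Oas2 was at 3.94 and 3.05 with TCQA and at 3.52 and 3.63 in control, so that the TCQA arrays were its highest and its lowest. Oas1a belongs to a cluster of near-identical copies, which its probes may not tell apart.

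The Mx genes encode GTPases that trap viral nucleoproteins, and many inbred mouse strains carry a defective Mx1. Mx1 was at 6.14 and 5.43 with TCQA and at 5.79 and 5.48 in control. Mx2 was at 7.48 and 6.89 with TCQA and at 6.78 and 6.77 in control, with both TCQA arrays above both control arrays. For both genes TCQA replicate 1 was the highest array, and the differences of 0.15 (SE 0.28) and 0.40 (SE 0.24) were -0.20 and 0.11 without it.

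Among the membrane restriction factors 1 gene stood apart. Ifitm3, which blocks fusion of viruses in endosomes, was at 10.93 and 8.87 with TCQA and at 8.83 and 8.92 in control. TCQA replicate 1 lay 2.06 above the mean of the other 3 arrays, which spanned less than the standard error of the difference. The means were 9.90 ± 1.46 and 8.88 ± 0.07 (SD, n = 2 each), a difference of 1.02 (SE 0.61, unadjusted p = 0.143, adjusted p = 0.831) that was -0.01 without TCQA replicate 1. The neighbouring family members did not share this height. Ifitm1 was at 7.68 and 7.63 with TCQA and at 7.33 and 7.45 in control, a difference of 0.26 (SE 0.17). Ifitm2 was at 9.25 and 9.15 with TCQA and at 9.26 and 9.58 in control, a difference of -0.22 (SE 0.19), with the TCQA signals both under the control signals. In the RefSeq order Ifitm2, Ifitm1 and Ifitm3 have 0 protein-coding genes between neighbours. The promoters of Ifitm3 and Ifitm2 are printed to set these neighbours side by side: GAAAAGGAAA stands in both, from 3 to 12 in Ifitm3 and from -46 to -37 in Ifitm2, and Ifitm3 has a further core, GAAACCGAAA, from 20 to 29. No core was found for Ifitm1.

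Ifitm3 promoter, chr7:141010695-141010994, minus strand: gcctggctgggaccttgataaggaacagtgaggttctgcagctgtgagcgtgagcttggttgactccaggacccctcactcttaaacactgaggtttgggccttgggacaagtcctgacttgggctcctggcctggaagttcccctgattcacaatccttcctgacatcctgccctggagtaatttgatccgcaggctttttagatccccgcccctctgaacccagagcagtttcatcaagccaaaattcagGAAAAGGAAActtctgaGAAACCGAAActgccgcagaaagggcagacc
Ifitm2 promoter, chr7:140955912-140956211, minus strand: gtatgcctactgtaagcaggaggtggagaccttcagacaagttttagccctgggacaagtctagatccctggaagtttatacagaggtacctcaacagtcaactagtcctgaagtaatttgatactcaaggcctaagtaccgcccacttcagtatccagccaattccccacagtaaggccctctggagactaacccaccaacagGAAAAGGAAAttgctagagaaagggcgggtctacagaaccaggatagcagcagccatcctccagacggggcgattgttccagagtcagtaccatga

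Bst2, the tetherin that holds budding virus at the cell surface, was at 5.43 and 4.98 with TCQA and at 5.22 and 5.30 in control, so that the TCQA arrays were its highest and its lowest. Rsad2, the radical enzyme viperin, and Cmpk2, the nucleotide kinase beside it in the genome, make an antiviral nucleotide together. Rsad2 was at 4.65 and 4.38 with TCQA and at 4.52 and 4.39 in control, and Cmpk2 at 9.68 and 9.53 against 9.54 and 9.63. Isg20, an exonuclease of single-stranded RNA, was at 5.69 and 5.34 with TCQA and at 5.80 and 5.31 in control. In these 3 genes the groups overlapped, with differences between -0.04 and 0.06 and standard errors of 0.18 to 0.24.

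Isg15 is a ubiquitin-like protein that is attached to other proteins, Herc6 is the mouse ligase that attaches it and Usp18 removes it and also shuts off Ifnar2. Isg15 was dim, at 6.31 and 5.15 with TCQA and at 4.78 and 4.94 in control, with both TCQA arrays above both control arrays. Its difference of 0.87 (SE 0.37, unadjusted p = 0.0584, adjusted p = 0.799) was 0.28 without TCQA replicate 1. Usp18 was at 7.78 and 6.27 with TCQA and at 7.05 and 6.28 in control. Here the control arrays differed as well, and the difference of 0.36 (SE 0.51) was -0.39 without TCQA replicate 1. Herc6 was bright, at 10.80 and 10.52 with TCQA and at 10.37 and 10.18 in control, with both TCQA arrays above both control arrays and a difference of 0.39 (SE 0.20, unadjusted p = 0.0903, adjusted p = 0.809).

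Of the TRIM ubiquitin ligases, Trim30a, which dampens Toll-like receptor signalling, was at 6.36 and 4.79 with TCQA and at 4.42 and 4.57 in control. Both TCQA arrays lay above both control arrays, and the difference of 1.08 (SE 0.48, unadjusted p = 0.0628, adjusted p = 0.799) was 0.30 without TCQA replicate 1. Trim30a has close copies beside it, so its signal may be shared. Trim21, a cytosolic antibody receptor, was at 5.13 and 4.28 with TCQA and at 4.84 and 4.48 in control, so that the TCQA arrays were its highest and its lowest. Trim25, which activates the RNA sensor RIG-I, was at 5.999 and 5.96 with TCQA and at 6.18 and 6.02 in control, a difference of -0.12 (SE 0.18) with the TCQA signals both under the control signals.

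Parp9 and Dtx3l form a complex that ubiquitinates and ADP-ribosylates proteins in the interferon response, and Parp14 is a related ADP-ribosyl transferase. The 3 genes follow each other in the RefSeq order with 0 protein-coding genes between neighbours. Dtx3l had the smallest p of the members. It was at 6.63 and 7.02 with TCQA and at 5.94 and 6.21 in control, with TCQA replicate 2 the highest array. Its means were 6.82 ± 0.28 and 6.07 ± 0.19 (SD, n = 2 each), both under the negative control medians, so that the size is less certain. The difference was 0.75 (SE 0.22, unadjusted p = 0.0125, adjusted p = 0.787). It was 0.95 without TCQA replicate 1 (unadjusted p = 0.00614) and 0.89 without control replicate 2 (unadjusted p = 0.0181), and 0.56 without TCQA replicate 2 (unadjusted p = 0.0633) and 0.62 without control replicate 1 (unadjusted p = 0.0667). Its partner Parp9 was at 6.12 and 5.16 with TCQA and at 5.41 and 5.50 in control, with TCQA replicate 1 highest and TCQA replicate 2 lowest. Parp14 was at 6.46 and 6.72 with TCQA and at 6.83 and 6.09 in control, with overlapping groups.

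Sp100, a component of nuclear bodies that repress viral genomes, was at 9.35 and 8.57 with TCQA and at 8.20 and 8.15 in control. Both TCQA arrays lay above both control arrays, TCQA replicate 1 farther, though near-identical copies of this gene may share its probes. The difference of 0.79 (SE 0.28, unadjusted p = 0.0296, adjusted p = 0.787) was 0.39 without TCQA replicate 1 (unadjusted p = 0.148), 1.18 without TCQA replicate 2 (unadjusted p = 0.00129), 0.82 without control replicate 1 (unadjusted p = 0.0659) and 0.76 without control replicate 2 (unadjusted p = 0.0823). Samd9l, a translation-blocking antiviral factor, was at 8.66 and 7.85 with TCQA and at 7.72 and 7.90 in control. Xaf1, a promoter of cell death, was at 7.86 and 6.68 with TCQA and at 6.43 and 6.92 in control. Rtp4, a receptor transporter that also restricts viruses, was at 6.97 and 5.86 with TCQA and at 5.58 and 6.33 in control. In these last 3 genes TCQA replicate 1 was highest and TCQA replicate 2 lay between the control arrays, and differences of 0.44, 0.59 and 0.46 became 0.03, 0.00 and -0.10 without TCQA replicate 1. Ifi27, a mitochondrial protein, was at 9.14 and 8.82 with TCQA and at 8.73 and 9.06 in control, and Ifi35, a regulator of inflammatory signalling, at 6.27 and 6.29 against 6.49 and 6.16, both with overlapping groups.

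Lgals9, the secreted galectin that binds Tim-3 on immune cells, was at 8.07 and 7.81 with TCQA and at 7.38 and 7.72 in control. Both TCQA arrays lay above both control arrays, with a difference of 0.38 (SE 0.21, adjusted p = 0.818). Lgals3bp, a secreted glycoprotein that binds galectin, was at 6.81 and 6.86 with TCQA and at 6.58 and 6.77 in control, a difference of 0.16 (SE 0.18). The Lgals9 promoter has cores from -55 to -46 and from 16 to 25.

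Lgals9 promoter, chr11:78984875-78985174, minus strand: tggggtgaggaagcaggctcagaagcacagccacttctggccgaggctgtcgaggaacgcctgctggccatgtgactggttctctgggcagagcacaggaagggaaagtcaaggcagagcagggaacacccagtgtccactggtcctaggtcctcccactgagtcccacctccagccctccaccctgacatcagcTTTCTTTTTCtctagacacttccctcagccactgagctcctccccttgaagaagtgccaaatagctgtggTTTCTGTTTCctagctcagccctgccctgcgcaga

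In all, the groups did not overlap for 13 members that were higher (18.9% of all gene probe sets) and for 3 that were lower (17.8% of all), Irf1, Ifitm2 and Trim25. The difference between the 2 TCQA arrays was over 1, with TCQA replicate 1 higher, for 10 of the 40 members, against 1.13% of all gene probe sets. These, chosen here on that very difference, were Ifit3, Ifitm3, Oasl2, Ifit1, Trim30a, Usp18, Irf7, Xaf1, Isg15 and Rtp4, 2 of them bright. By the height of TCQA replicate 1 over the other 3 arrays, Ifitm3 ranked 9, Ifit1 16 and Trim30a 18 of 22206. On TCQA replicate 2 the same 10 genes had a median of 0.00 relative to the control mean, and on TCQA replicate 1 of 1.66.

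**Figure D3:**
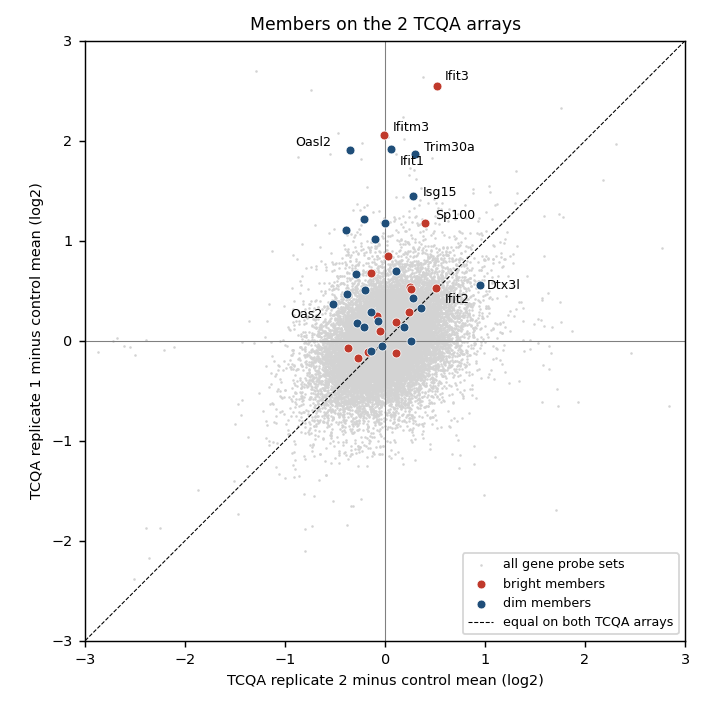
Each gene probe set's log2 signal on TCQA replicate 1 (vertical) and TCQA replicate 2 (horizontal), both minus the mean of the 2 control arrays, with all gene probe sets in grey and the members coloured by signal. The axes end at 3 in both directions and leave out 5 probe sets of no member. Ifit3, Ifitm3 and Oasl2 stand high on the vertical axis, at 2.55, 2.06 and 1.91, and at 0.52, -0.01 and -0.35 on the horizontal one, while Ifit2 lies near the line of equality and Dtx3l to its right.

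Other genes of the pathway were read from a list of 76 symbols, of which 71 were measured. At an unadjusted p under 0.05, 8 of the 71 were higher and 1 lower, against 3.38% and 2.86% of all gene probe sets, and 0 of 71 passed the adjusted threshold by limma. The list median was 0.20, and 32 of 71 were highest on TCQA replicate 1 (26.4% of all gene probe sets). Among its 46 interferon-induced genes the median was 0.33, with 33 higher (51.1% of all gene probe sets). Of the 33, 7 had an unadjusted p under 0.05 by limma. TCQA replicate 1 was highest for 27 of the 46. Ddx58, the RNA sensor RIG-I, was at 7.62 and 7.53 with TCQA and at 6.71 and 6.60 in control, a difference of 0.91 (SE 0.17, adjusted p = 0.787). The guanylate-binding protein gene Gbp2 was at 6.43 and 6.32 with TCQA and at 5.69 and 5.42 in control, a difference of 0.81 (SE 0.19, adjusted p = 0.787). In both the TCQA arrays were alike and above both control arrays, the latter as for 18.9% of all gene probe sets. Both genes are dim, so the size is less certain. Gbp2 lay under the negative control medians in both groups and Ddx58 in control.

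Of the 8 interferon genes on that list, all dim, 4 were higher and 4 lower, with a median of 0.04 and TCQA replicate 1 highest for 0. Ifna4, a type I interferon, was at 3.46 and 3.51 with TCQA and at 4.18 and 4.09 in control, a difference of -0.65 (SE 0.17, adjusted p = 0.787), at a signal far under the negative controls and in a family of near-identical genes. Of the 7 other receptors and kinases 5 were higher, with a median of 0.10. Ifngr1, the ligand-binding chain of the interferon gamma receptor, was at 9.95 and 10.21 with TCQA and at 9.54 and 9.31 in control, a difference of 0.65 (SE 0.20, adjusted p = 0.787). The 6 negative regulators had a median of -0.19 and the 4 transcription factors one of 0.01.

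Markers of cell types that can respond to interferon were read on the same arrays. Of all gene probe sets 51.1% had a higher mean with TCQA, and TCQA replicate 1 was highest for 26.4%. In bulk tissue, fewer cells of a type and less RNA per cell cannot be told apart. Of 13 microglia markers 11 were higher, the median being 0.09, and the highest array was TCQA replicate 1 for 5 and TCQA replicate 2 for 5. Their summed linear signal was 14317 and 17297 with TCQA and 14074 and 13867 in control, of which the P2ry12 probe set makes up most. The defining microglia genes P2ry12 (13.29 and 13.63 with TCQA, 13.32 and 13.21 in control) and Cx3cr1 (8.10 and 7.73 against 7.73 and 7.75) were above the median signal of all gene probe sets on every array. P2ry13, another microglial receptor, was at 8.06 and 7.65 with TCQA and at 7.31 and 7.26 in control. Endothelial markers were higher in 7 of 10, 3 of them at an unadjusted p under 0.05 by limma (3.38% of all gene probe sets, 0 adjusted). Among these were the glucose transporter gene Slc2a1 at a difference of 0.57 and the anion transporter gene Slco1a4 at 0.47. The 3 lower markers were Pecam1 at -0.26, Tek at -0.33 and Cdh5 at -0.01. The list had sums of 59374 and 65860 with TCQA and 47862 and 42310 in control, of which the Slc2a1 probe set makes up the largest part. TCQA replicate 1 was highest for 1 of 10. Astrocyte markers were higher in 7 of 9, with TCQA replicate 1 highest for 2, and border macrophage markers in 4 of 6, with TCQA replicate 1 highest for 1. Blood leukocyte markers were higher in 5 of 10, with 1 of 10 bright, sums of 848 and 1075.4 with TCQA and 956 and 816 in control, and TCQA replicate 1 highest for 1. For the members the summed signal was 14927 on TCQA replicate 1 and 10096 on TCQA replicate 2, with 9268 and 10113 in control. Such sums follow their brightest probe sets, whose signals cannot be compared with those of other probe sets. The sums of these 5 marker lists were higher on TCQA replicate 2, while that of the excitatory neuron markers was higher on TCQA replicate 1. The neuron sums were 386564 and 372726 with TCQA and 483331 and 435117 in control, of which the Camk2a probe set makes up most. Camk2a itself was slightly lower on TCQA replicate 1, at 18.06 against 18.13 on TCQA replicate 2. The part of these cells in the members' differences was not tested.

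**Figure D4:**
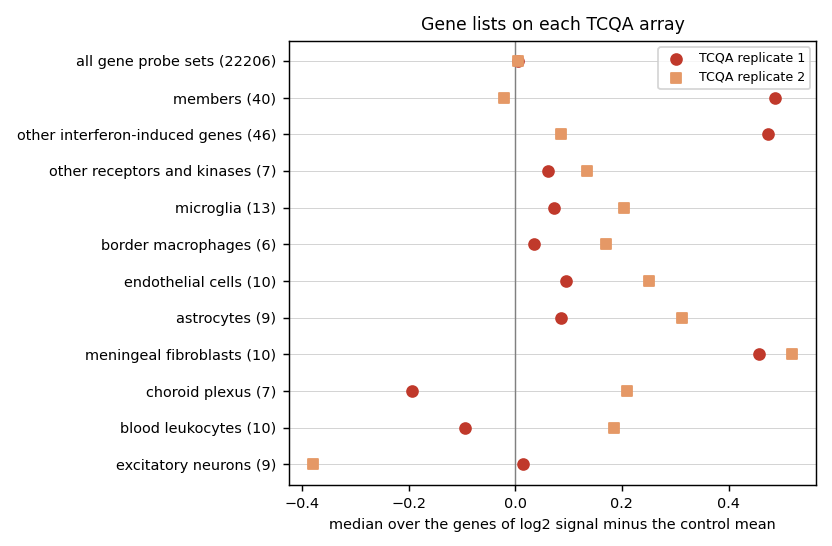
Median over the genes of each list of the log2 signal on TCQA replicate 1 (circles) and TCQA replicate 2 (squares) minus the control mean, with the number of measured genes in brackets. The members and the other interferon-induced genes stand at 0.49 and 0.47 on TCQA replicate 1 and at -0.02 and 0.09 on TCQA replicate 2. The microglia, endothelial, astrocyte, border macrophage, blood leukocyte, choroid plexus, meningeal fibroblast and other receptor lists are higher on TCQA replicate 2. The meningeal list is also high on TCQA replicate 1, at 0.46 against 0.52 on TCQA replicate 2. The excitatory neuron list is higher on TCQA replicate 1, at 0.01 against -0.38.

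The tissue label was checked with markers of cortical excitatory neurons, of which 9 of 10 were measured and 8 were bright. With TCQA 6 of the 9 were lower, with a median of -0.26, and TCQA replicate 1 was highest for 4 (26.4% of all gene probe sets). At an unadjusted p under 0.05, 2 were lower (2.86% of all gene probe sets), and 0 passed the adjusted threshold by limma. The 2 lower ones were the transcription factor genes Neurod2, by a difference of -0.50, and Cux2, by -0.48. The part of these neurons in the members' differences was not tested. Slc17a7, their vesicular glutamate transporter, was at 16.39 and 16.03 with TCQA and at 16.68 and 16.38 in control, and the cortical factor Neurod6 at 11.76 and 10.45 against 11.31 and 11.43. Markers of tissue that borders the cortex differed widely between arrays. The summed choroid plexus signal was 5659 and 33670 with TCQA and 720 and 89394 in control. Except on control replicate 1, the Ttr probe set makes up most of this sum. Ttr was at 12.23 and 14.97 with TCQA and at 7.49 and 16.42 in control. Of the 7 markers, control replicate 1 was lowest for 6 and control replicate 2 highest for 4. Meningeal fibroblast markers were higher in 10 of 10 (51.1% of all gene probe sets), with a median of 0.51. At an unadjusted p under 0.05 by limma, 4 were higher (3.38% of all). The sums of the list were 5692 and 6985 with TCQA and 2658 and 6417 in control, with control replicate 1 lowest for 8 markers. TCQA replicate 1 was highest for 0 of these and for 1 of the 7 choroid plexus markers, and their part in the members' differences was not tested either. Across genes the 4 arrays correlated at 0.991 to 0.993, which is not a test, since genes are not replicates.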

How the data were processed

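Each probe set has a log2 value, which the authors obtained by SST-RMA in TAC 4.0.2, per the labels' protocols and the submitters' processing notes. This method equalizes the arrays' distributions and merges the probes of a set, so a probe set can be compared between arrays but not with another. The probe sets rest on a build not given in the sources used here, and the promoter windows are of GRCm38.p6.

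Of 28846 probe sets 6640 were controls and stayed out of the tests, and 22206 were fitted. GEO's platform annotation gave 19572 of them 1 symbol, 0 several symbols, and 2634 none here, and a table of RefSeq genes changed 0 symbols. Groups came from sample titles. For the comparison, limma 3.58.1 ran under R 4.3.3 (lmFit and eBayes, two-sided, TCQA minus control, 2 residual degrees of freedom, prior 4.23), with Benjamini-Hochberg adjustment over all 22206, tested on simulated data. Dim probe sets stayed in. The number of arrays limits the precision, with a median standard error of 0.20.

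The members and lists were chosen with earlier results of these data known. All measured members are named, as are the 4 other pathway genes with the smallest p, up to 2 per marker list, and Slc17a7, Neurod6, Cx3cr1 and P2ry12. Pecam1, Tek, Cdh5, Ttr and Camk2a are named as well, chosen after their values were seen. Alternatives were a replicate block, quantile normalization, median centring, leaving out dim probe sets, a prior following the signal, no moderation, the mean of a symbol's probe sets, control probe sets in the fit, and leaving out each array. How often the members were highest on 1 array was recounted under quantile normalization and median centring, chosen after seeing the data.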

Additional observations from a re-analysis of the deposited data

How the results depend on the processing

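Under every alternative run, 0 of the measured members passed the adjusted threshold. Their counts at an unadjusted p under 0.05 and past the criterion were 6 and 2 with the replicate block, 6 and 2 with a prior following the signal, 4 and 1 with quantile normalization or median centring, 3 and 1 with dim probe sets left out (12 of the 16 then measured were higher), and 0 and 0 with no moderation. Leaving out 1 array gave 1 to 15 and 0 to 11, with 19 to 33 members higher, a member median of -0.0217 to 0.49, a bright median of 0.0711 to 0.40 and a dim median of -0.0867 to 0.49. The low ends of the 3 medians came without TCQA replicate 1. The high ends of both counts, of the members higher and of the 3 medians came without TCQA replicate 2. That fit rests on TCQA replicate 1 alone for its group, so its counts say nothing of how TCQA arrays vary. Control probe sets in the fit and the mean of a symbol's probe sets left all counts of members as they were, and 28 members were highest on TCQA replicate 1 under both rescalings. With 1 mismatch allowed the response element core was found for 28 of the 33 listed genes in the promoter table (38.9% of all genes). In the fit reported above, 1386 of all 22206 gene probe sets had an unadjusted p under 0.05. The replicate block gave 1425, a prior following the signal 1526, quantile normalization 1396 and median centring 1372. No moderation gave 1353, control probe sets in the fit 947, and leaving out dim probe sets 926 of 11103. The criterion was met by 92, 86, 83, 83 and 36 with the block, that prior, quantile normalization, centring and dim probe sets left out. Over all genes the criterion was met by 83, by 25 with no moderation and by 160 to 291 without 1 array, and 4 passed the adjusted threshold without TCQA replicate 1. Replicate numbers gave no sign of pairing, since deviations of same-numbered arrays correlated at 0.05 across genes, so the replicate block is only an alternative. Where an array is left out, the lone array of its group is assumed to vary like the others. The causes of these shifts were not tested.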
